A study of Mus musculus with 4 samples.

Results

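The brush border is the carpet of microvilli on the lumen side of absorptive enterocytes, and the enzymes anchored in it carry out the last step of digestion of sugars, peptides and phosphate esters. Before weaning the main dietary sugar is the lactose of milk, which is split by lactase. In mice, the enzymes for sucrose, starch products and trehalose are known to rise around weaning, while lactase falls, and duodenum, jejunum and ileum keep different sets of these enzymes. The levels of 10 brush border hydrolase genes, of 32227 genes in the feature lists, were measured here. They are lactase (Lct), sucrase-isomaltase (Sis), trehalase (Treh), maltase-glucoamylase (Mgam), aminopeptidase N (Anpep), dipeptidyl peptidase 4 (Dpp4), the alkaline phosphatases Alpi and Akp3, and the 2 meprin subunits Mep1a and Mep1b. All 10 were found in the feature lists by symbol.

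The epithelium came from wild-type (WT) mice at postnatal day 6 (P6), an age at which pups suckle. A short segment of jejunum and one of ileum was taken from each of 2 mice, which gave 4 single-cell libraries, 2 per region. Replicate 1 of both regions is the mouse labelled male in batch 1 and replicate 2 is the mouse labelled female in batch 2, so that any effect of the mouse, its labelled sex or the batch falls on the same libraries and none can be separated from the others. No treatment or transgene is given for any group. In these libraries Xist, the RNA of the silenced X chromosome, lay at 575 and 466 CPM (UMIs per 1000000 UMIs of the library) in ileum and jejunum replicate 1, labelled male, and at 0.705 and 0.907 in replicate 2, labelled female, and the Y-linked gene Eif2s3y showed the opposite (0.0115 and 0.119 against 88.1 and 67.0). The sex labels therefore go against the data in both mice, while the 2 regions of each mouse matched each other.

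A UMI marks 1 captured RNA molecule, and levels are given as CPM, the UMIs of a gene per 1000000 UMIs of the same library and cell class. Since these libraries count 1 tag at the 3′ end of each molecule, levels were compared between genes without a correction for length, although capture can still differ between genes. Of 36202 called cells, 30521 were kept. The ileum libraries were deeper, with medians of 12047.5 and 10916 UMIs per cell against 4690 and 5884 in the jejunum, so shares of cells with a UMI were taken after each cell had been thinned to 2000 UMIs. Mitochondrial UMIs made up a median of 3.61% and 3.74% of an ileal cell and 6.37% and 9.94% of a jejunal one. Enterocyte-like cells, named from marker genes that hold none of the 10 hydrolases, made up 89.9% to 92.7% of each library. The other classes were stem/progenitor-like (513 to 560 cells per library), enteroendocrine-like (46 to 73), immune-like (10 to 19) and goblet-like (3 to 9), the last too few to describe. Of the barcodes, 1 was shared in each of 2 pairs of libraries and 0 in the others. The doublet caller marked only 1 or 2 cells per library and so did not work. Summed markers of enterocytes lay at 20163 and 23207 CPM in ileal and 47078 and 49410 in jejunal enterocyte-like cells, and those of stem cells and progenitors at 227 and 200.3 against 230.04 and 247; their part in the region changes was not tested.

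In enterocyte-like cells, 7 of the 10 hydrolases were abundant and 3 of the 4 enzymes associated with weaning were barely detected. Averaged over the 4 libraries, Lct was highest at 1356 CPM, followed by Alpi at 1108, Anpep at 718, Mep1a at 651, Mgam at 348, Mep1b at 327 and Dpp4 at 269.6. Treh averaged 2.27, Sis 0.457 and Akp3 0.0538. The gap between Dpp4 and Treh was far larger than the spread between libraries, but the order within the abundant 7 was not the same in both regions. Lct led in both jejunum libraries and Alpi in both ileum libraries, and neighbours such as Mgam and Mep1b (168 to 587 and 276 to 379) overlapped.

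**Figure D1:**
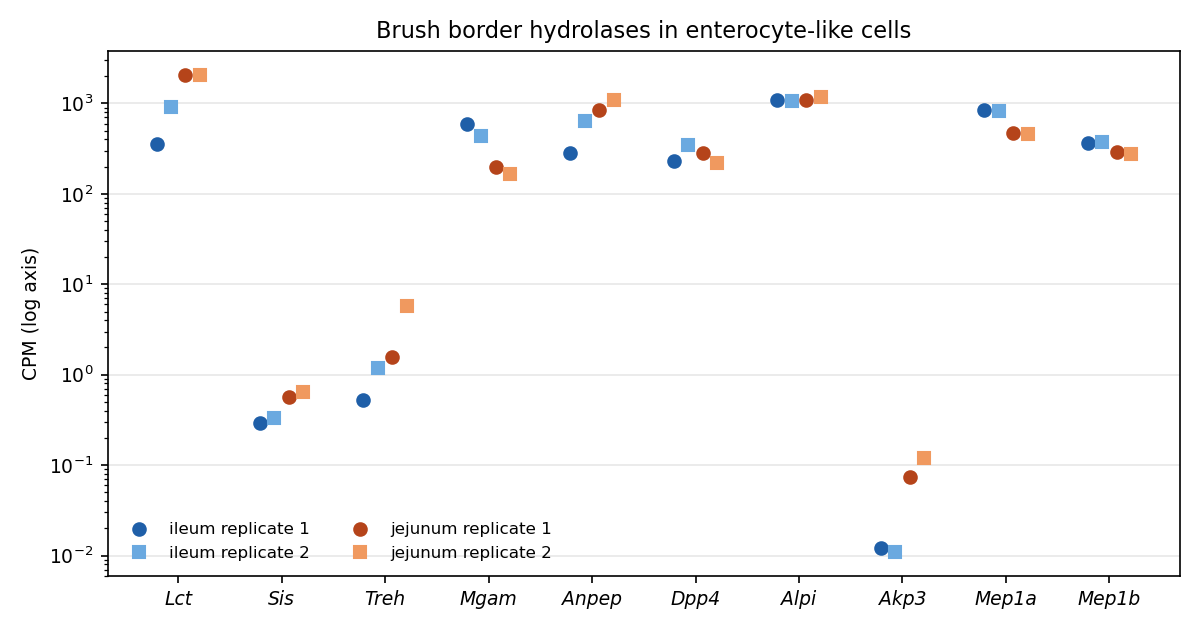
Level of each of the 10 hydrolases in enterocyte-like cells, in CPM on a log axis, with 1 point per library (circles are replicate 1, squares replicate 2, blue ileum, orange jejunum). Sis, Treh and Akp3 lie at or below 5.79 CPM in every library while the other 7 lie at 168 or above.

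Lct (ENSMUSG00000026354), which splits lactose, reached 358 CPM in ileum replicate 1 and 909 in ileum replicate 2, against 2071 and 2086 in jejunum replicates 1 and 2. The jejunum libraries were nearly equal, the ileum libraries differed from each other by more than the jejunum libraries did, and the regions did not overlap. At 2000 UMIs per cell, Lct was seen in 40.7% and 72.4% of ileal and in 96.6% and 96.0% of jejunal enterocyte-like cells. The fitted log2 ratio of ileum to jejunum was -1.80 ± 0.46 (SE, n = 2 against 2), with an adjusted p of 0.0736 in edgeR's quasi-likelihood test. With the mouse as a replicate block, which compares the regions within each mouse, the ratio was -1.97 ± 0.34 and the adjusted p 0.0263. Within the mice, the log2 ratio was -2.53 in the first and -1.20 in the second. Leaving out ileum replicate 2 gave a ratio of -2.70 and an adjusted p of 0.0208, while leaving out any other library did not call it, and without ileum replicate 1 the ratio was -1.25. Over 15 alternatives, 3 called Lct (the one without ileum replicate 2, the block and DESeq2), with adjusted p from 0.0208 to 0.136.

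Sis (ENSMUSG00000027790), the enzyme for sucrose and isomaltose and the usual mark of the mature intestine, reached 0.289 and 0.330 CPM in ileal and 0.566 and 0.643 in jejunal enterocyte-like cells. These levels rest on 24, 30, 31 and 27 UMIs among 5143 to 8342 cells per library. Over all kept cells Sis was at 2.52 and 2.25 CPM in ileal and 3.57 and 4.51 in jejunal libraries, mostly from enteroendocrine-like cells, as described below. The part of free RNA from those cells in the enterocyte-like levels was not tested. In enterocyte-like cells the log2 ratio of ileum to jejunum was -1.07 ± 0.32 (SE) with an adjusted p of 0.101 in edgeR. Set against Lct in the same cells, Sis amounted to 0.0806% and 0.0363% of the Lct UMIs in the ileum and to 0.0273% and 0.0308% in the jejunum. The log2 difference of this ratio between the regions was 0.90, with an exact two-sided permutation p of 0.3333, the smallest that 2 libraries against 2 can give. At 2000 UMIs per cell, with 8, 2, 7 and 5 Sis UMIs, the shares were 0.180% and 0.0145% in ileal and 0.0217% and 0.0248% in jejunal cells. The regions then overlapped (exact two-sided permutation p of 1), and the log2 difference was 1.14 and -0.67 without ileum replicate 1.

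Treh (ENSMUSG00000032098), which splits trehalose, was at 0.530 and 1.18 CPM in ileal against 1.57 and 5.79 in jejunal libraries. Jejunum replicate 2 stood above the other 3 libraries, and the regions did not overlap. Its log2 ratio was -2.21 ± 0.73 (SE), with an adjusted p of 0.122 in edgeR, and -2.07 ± 0.28 with an adjusted p of 0.0153 with the mouse as a replicate block. Over 15 alternatives the ratio ran from -2.96 to -0.92, the latter without jejunum replicate 2, and the adjusted p from 0.00649 in DESeq2 to 0.408, and 3 of them called it (the third without jejunum replicate 1, 0.0124). The alkaline phosphatase Akp3 (ENSMUSG00000036500), described as an enzyme of the adult duodenum, had 1, 1, 4 and 5 UMIs in the 2 ileum and 2 jejunum libraries, failed the filter on low counts and was the only one of the 10 not tested. Akp3 and Alpi are close paralogs, so a few UMIs of one can come from reads of the other. Treh, Dpp4 and Alpi have antisense or long non-coding neighbours whose reads may not be told apart, since use of strand in the counting is not given in the sources used here.

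Mgam (ENSMUSG00000068587), which splits glucose from the ends of starch products and is grouped with the enzymes of weaning, was abundant in every library. It reached 587 and 441 CPM in ileal against 196 and 168 in jejunal libraries, and the regions did not overlap. At 2000 UMIs per cell it was seen in 59.8% and 50.9% of ileal and in 26.3% and 25.6% of jejunal enterocyte-like cells. The log2 ratio was 1.38 ± 0.17 (SE), a 2.61-fold higher level in the ileum, with an adjusted p of 0.0206 in edgeR. This call was lost without ileum replicate 1 (log2 ratio 1.22, adjusted p 0.0685).

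The mean levels of Mgam, which was called, and of Lct, which did not pass (adjusted p 0.0736), lay in opposite directions between the regions. Mgam amounted to 164% and 48.5% of the Lct UMIs in ileum replicates 1 and 2, but to 9.48% and 8.03% in jejunum replicates 1 and 2. In ileum replicate 1 there was thus more Mgam than Lct RNA. The sum of Sis, Treh, Mgam and Akp3 against Lct was 164%, 48.7%, 9.58% and 8.35% in the same order, a log2 difference of 3.32 between the regions, with an exact two-sided permutation p of 0.3333, again the smallest possible. Nearly all of this sum was Mgam. Within a library, thinned enterocyte-like cells held Mgam less often when they held Lct. The shares of cells with Mgam among those with and without a Lct UMI were 55.2% and 63.0% in ileum replicate 1, 46.8% and 61.8% in ileum replicate 2, 26.0% and 36.0% in jejunum replicate 1, and 25.3% and 34.5% in jejunum replicate 2. These shares are a description over cells of the same libraries.

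The 250 bases upstream of the start of Lct, Sis and Mgam are shown because these 3 sugar hydrolases are the suckling and weaning enzymes set against each other above. Capitals mark matches on either strand to short motifs, which can overlap. The motif GTTAAT is the core of sites of the HNF1 factors. The motif for CDX2, a homeobox factor of the intestine, was TTTAT. The motif for the GATA factors was GATAA. The sequences are from RefSeq on GRCm38.p6, a different build from the one the counts were made on, at chr1:128328319-128328568 on the minus strand, chr3:72967864-72968113 on the minus strand and chr6:40628581-40628830 on the plus strand.
Lct: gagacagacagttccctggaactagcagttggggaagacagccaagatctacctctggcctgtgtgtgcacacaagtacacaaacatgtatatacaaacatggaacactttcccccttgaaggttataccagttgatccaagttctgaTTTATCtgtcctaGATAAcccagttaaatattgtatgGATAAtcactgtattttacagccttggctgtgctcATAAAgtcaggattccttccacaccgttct
Sis: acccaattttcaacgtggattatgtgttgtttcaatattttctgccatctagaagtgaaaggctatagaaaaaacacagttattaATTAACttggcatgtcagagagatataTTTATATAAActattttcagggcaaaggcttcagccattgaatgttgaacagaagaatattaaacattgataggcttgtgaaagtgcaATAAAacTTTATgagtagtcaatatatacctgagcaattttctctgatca
Mgam: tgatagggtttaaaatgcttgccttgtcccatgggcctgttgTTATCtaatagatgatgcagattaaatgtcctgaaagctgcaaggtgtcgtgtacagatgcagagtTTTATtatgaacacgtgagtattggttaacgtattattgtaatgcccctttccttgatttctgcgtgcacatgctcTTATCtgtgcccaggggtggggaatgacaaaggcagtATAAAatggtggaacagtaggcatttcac

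The Lct window held 3 GATAA and 2 TTTAT matches, the Sis window 1 GTTAAT and 4 TTTAT matches, and the Mgam window 2 GATAA and 2 TTTAT matches. Promoter windows were at hand for 9 of the 10 members, all but Mep1b. GTTAAT occurred in 1 of these 9 (Sis) and in 6.43% of 32851 promoters of the same length, TTTAT in 5 of 9 and in 37.3%, and GATAA in 4 of 9 and in 22.6%. These are counts of letters and not of bound sites.

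Among the peptidases, Anpep (ENSMUSG00000039062), which removes single amino acids from the N-terminal end of peptides, followed Lct in direction. It was at 283 and 646 CPM in ileal against 839.5 and 1106 in jejunal libraries, with ileum replicate 1 farthest from the rest and no overlap between the regions. The log2 ratio was -1.16 ± 0.43 (SE), with an adjusted p of 0.148 in edgeR, and -1.28 ± 0.22 with an adjusted p of 0.0253 with the mouse as a replicate block. Dpp4 (ENSMUSG00000035000), which removes dipeptides that end in proline or alanine, was at 228 and 346 in ileal and 286 and 218 in jejunal libraries, and here the regions overlapped. Its log2 ratio was 0.09 ± 0.26 (SE, 95% interval -0.55 to 0.74, adjusted p 0.839 in edgeR), which leaves room for changes of either sign.

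The meprins are zinc endopeptidases built of alpha (Mep1a) and beta (Mep1b) chains. Mep1a (ENSMUSG00000023914) was at 853 and 824 CPM in ileal against 473 and 455 in jejunal libraries, tightly grouped within each region. Its log2 ratio was 0.74 ± 0.13 (SE), with an adjusted p of 0.0370 in edgeR. Both mice gave nearly the same ratio, 0.85 and 0.86 on the log2 scale without the scaling factors, yet the call did not survive the loss of any 1 library (adjusted p 0.0743 to 0.110), nor the removal of the filter on low counts (0.0566). Mep1b (ENSMUSG00000024313) was at 362 and 379 in ileal against 289 and 276 in jejunal libraries, a log2 ratio of 0.28 ± 0.14 (SE, 95% interval -0.06 to 0.62, adjusted p 0.234 in edgeR).

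Alpi (ENSMUSG00000079440), the intestinal alkaline phosphatase that removes phosphate from nucleotides and bacterial lipopolysaccharide, was close to level across the libraries. It reached 1097 and 1066 CPM in ileal against 1106 and 1165 in jejunal libraries, and was seen in 80.4% to 85.5% of enterocyte-like cells at 2000 UMIs. The log2 ratio was -0.18 ± 0.14 (SE, 95% interval -0.54 to 0.17, adjusted p 0.439 in edgeR).

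In all, 2 of the 9 hydrolases tested (Mgam and Mep1a) were called between the regions in enterocyte-like cells at an adjusted p under 0.05, against 7.07% of 19752 genes. With the mouse as a replicate block, 5 of 9 were called (Lct, Treh, Mgam, Anpep and Mep1a), against 14.7% of genes. Without ileum replicate 1, edgeR called 0 of 9 and 4 had an unadjusted p under 0.05, while DESeq2 on all 4 libraries called 5 of 10. Without ileum replicate 2 the calls were Lct, Mgam and Anpep, without jejunum replicate 1 Treh and Mgam, and without jejunum replicate 2 Mgam alone. Over all kept cells, the same 2 genes were called. There DESeq2 also called Sis and Treh, and edgeR also called Sis when no upper limit on genes per cell was set, each as lower in the ileum. TMM scaling moved the median log2 ratio of all genes by about 0.11 from its value with library totals alone, 0.10, to -0.01, and none of the 9 changed sign between these scalings in enterocyte-like cells.

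**Figure D2:**
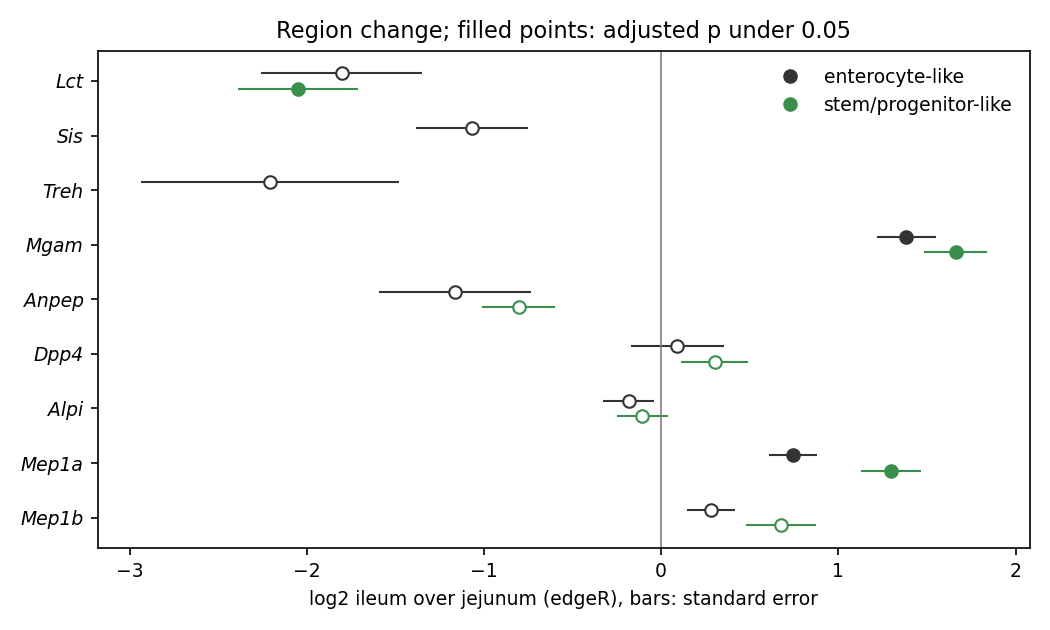
Log2 ratio of ileum to jejunum for the tested hydrolases in enterocyte-like (black) and stem/progenitor-like (green) cells, with standard errors; filled points passed an adjusted p of 0.05 in edgeR. Mgam and Mep1a lie to the right of 0 in both classes and Lct and Anpep to the left; Sis and Treh are drawn for enterocyte-like cells only, since at most 26 UMIs per library lay behind them in stem/progenitor-like cells.

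Stem/progenitor-like cells came from 2 clusters. Cluster 10 with 1291 cells was led by genes that include Olfm4 and, of dividing cells, Mki67 and Top2a. Cluster 16 with 852 cells was led by genes that include Krt19, Ccnd2 and, of crypt stem cells, Olfm4 and Lgr5. Olfm4 thus led in both. Of the enterocyte markers, 9 in cluster 10 and 11 in cluster 16 were seen in at least 50% of cells. With the cells of each class summed, Mgam was higher in stem/progenitor-like than in enterocyte-like cells of the same library. It reached 1024 and 867 CPM in ileal against 339 and 242 in jejunal libraries, so the level in enterocyte-like cells was 0.509 to 0.691 times as high. Anpep was at 385, 604, 823 and 865 CPM (enterocyte-like over stem/progenitor-like 0.734 to 1.28), a mean over 2 clusters that differed. In cluster 10 it was at 203, 241, 403 and 529 CPM and in cluster 16 at 724, 1021, 1454 and 1532. Summed enterocyte-like cells were at 283, 646, 839.5 and 1106, so cluster 10 lay below and cluster 16 above them in every library. Cluster 16 was not the highest, since enterocyte-like clusters 7 (1082, 1382, 2430 and 3160) and 17 (1209, 1486, 2782 and 3566) lay above it in every library. Mgam lay above the summed enterocyte-like level in clusters 10 and 16 of every library (839, 636, 279 and 217 CPM in cluster 10, 1369, 1133, 429 and 293 in cluster 16). Enterocyte-like cluster 7, however, held Mgam at 1579, 1259, 309 and 246 CPM in the same order. That was above cluster 10 in every library, and above cluster 16 in both ileum libraries but below it in both jejunum libraries. The other abundant hydrolases were lower in the stem/progenitor-like cells of every library. The level in enterocyte-like cells was 7.49 to 9.67 times as high for Lct, 7.09 to 8.46 times for Alpi, 3.23 to 4.89 times for Mep1b, 2.32 to 3.91 times for Mep1a and 1.77 to 2.22 times for Dpp4. These folds are descriptions, since both classes come from the same libraries. They too are means over 2 clusters that differed. Mep1b was at 41.9, 41.8, 21.2 and 24.4 CPM in cluster 10 and at 162, 204, 135 and 120 in cluster 16. Lct was at 44.5, 93.8, 166 and 170 in cluster 10 and at 23.2, 95.1, 443 and 431 in cluster 16. Alpi was at 119, 103, 98.1 and 93.3 in cluster 10 and at 150, 205, 232 and 239 in cluster 16.

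Between the regions, 3 of the 9 hydrolases tested were called in stem/progenitor-like cells, against 3.04% of 13028 genes. They were Mgam (log2 ratio 1.66 ± 0.18, SE, adjusted p 0.00251 in edgeR), Mep1a (1.30 ± 0.17, adjusted p 0.00459) and Lct (-2.05 ± 0.34, adjusted p 0.0144 in edgeR but 0.0613 in DESeq2). With the mouse as a replicate block, 5 were called, against 9.30% of genes, the added ones being Anpep (-0.84 ± 0.14, adjusted p 0.00151) and Mep1b (0.66 ± 0.16, adjusted p 0.0197). Lct in these cells was 37.1 and 94.4 CPM in ileal against 277 and 257 in jejunal libraries. In the few immune-like cells, which should not make lactase, it was 109, 22.3, 258 and 161 in the same order, from 9, 1, 34 and 14 UMIs. The Lct level of stem/progenitor-like cells lay above the immune-like level of its own library in 3 of the 4 libraries and below it in ileum replicate 1, and the part of free RNA in its level and in its region change was not tested. Mgam, Anpep and Mep1b in stem/progenitor-like cells, with both clusters summed, lay above their immune-like levels in every library (399, 67.0, 53.1 and 46.1 for Mgam, 48.3, 112, 106 and 346 for Anpep, 48.3, 44.7, 15.2 and 0 for Mep1b). Mep1a lay below it in ileum replicate 1 (298 against 435), and Alpi and Dpp4 lay below it in 3 of the 4 libraries. Averaged over the 4 libraries, immune-like cells held Dpp4 at 159 CPM beside 269.6 in enterocyte-like cells, and Alpi at 149 beside 1108. Whether immune-like cells make Dpp4 themselves was not tested. In cluster 10 alone, Mgam and Anpep stayed above the immune-like level in every library. Mep1b, at 41.9, 41.8, 21.2 and 24.4 CPM there, lay below it in both ileum libraries. Lct, at 44.5, 93.8, 166 and 170 CPM there, lay below it in replicate 1 of both regions.

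The region change differed between the 2 classes for 1 of the 9 hydrolases by the test of the interaction, Mep1a, against 9.30% of 19271 genes. Its log2 ratio of ileum to jejunum was lower by 0.57 ± 0.16 (SE) in enterocyte-like than in stem/progenitor-like cells, with an adjusted p of 0.0320 in edgeR. DESeq2 gave an adjusted p of 0.0558, edgeR 0.183 without ileum replicate 2 and 0.304 without jejunum replicate 2. With the hydrolases left among the genes used for clustering, the difference shrank to -0.10 with an adjusted p of 0.767. For Lct, the difference was 0.21 ± 0.15 (95% interval -0.12 to 0.53, adjusted p 0.465), and for Mgam it was -0.32 ± 0.15 (95% interval -0.64 to -0.00104, adjusted p 0.217).

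Sis, nearly absent from enterocyte-like cells, was concentrated in enteroendocrine-like cells in all 4 libraries. These hormone-producing cells held 602 and 588 CPM in ileal against 747 and 684 in jejunal libraries, compared with 0.289 to 0.643 in enterocyte-like, 2.17 to 5.23 in stem/progenitor-like and 0 in immune-like cells. Of 852 Sis UMIs in all kept cells, 688 (80.8%) lay in 257 enteroendocrine-like cells, which were 0.842% of the cells. A Sis UMI was seen in 173 of these 257 cells (67.3%, Clopper-Pearson exact 95% interval 61.2% to 73.0%). It was seen in 106 of 28045 enterocyte-like cells (0.378%, 0.310% to 0.457%) and in 42 of 2143 stem/progenitor-like cells (1.96%, 1.42% to 2.64%). Of 54 immune-like cells, 0 held one, with an upper limit of 6.60% by the same interval. These intervals cover counting error only. At 2000 UMIs per cell, the share of enteroendocrine-like cells with Sis was 55.6% and 62.7% in ileal against 62.7% and 40.0% in jejunal libraries. The highest count in 1 cell was 23 UMIs, in jejunum replicate 2, and 53 cells, all enteroendocrine-like, held 5 or more.

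The other hydrolases did not share this pattern. In enteroendocrine-like cells, Lct was at 126, 214, 245 and 296 CPM in ileum replicates 1 and 2 and jejunum replicates 1 and 2, beside the 109, 22.3, 258 and 161 of immune-like cells. Mgam was at 550.1, 249, 118 and 94.7, Anpep at 557, 367, 341 and 276, Mep1a at 372, 246, 96.1 and 74.1, and Alpi at 236, 178, 65.6 and 103. Treh had 1 UMI in these cells in all and Akp3 had 0. Sis made up 22.7% and 28.4% of the summed UMIs of the 10 hydrolases in ileal and 41.9% and 41.2% in jejunal enteroendocrine-like cells, while its share of that sum was under 0.012% in every library of enterocyte-like cells. Whether Sis differed between the regions in enteroendocrine-like cells was not tested.

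**Figure D3:**
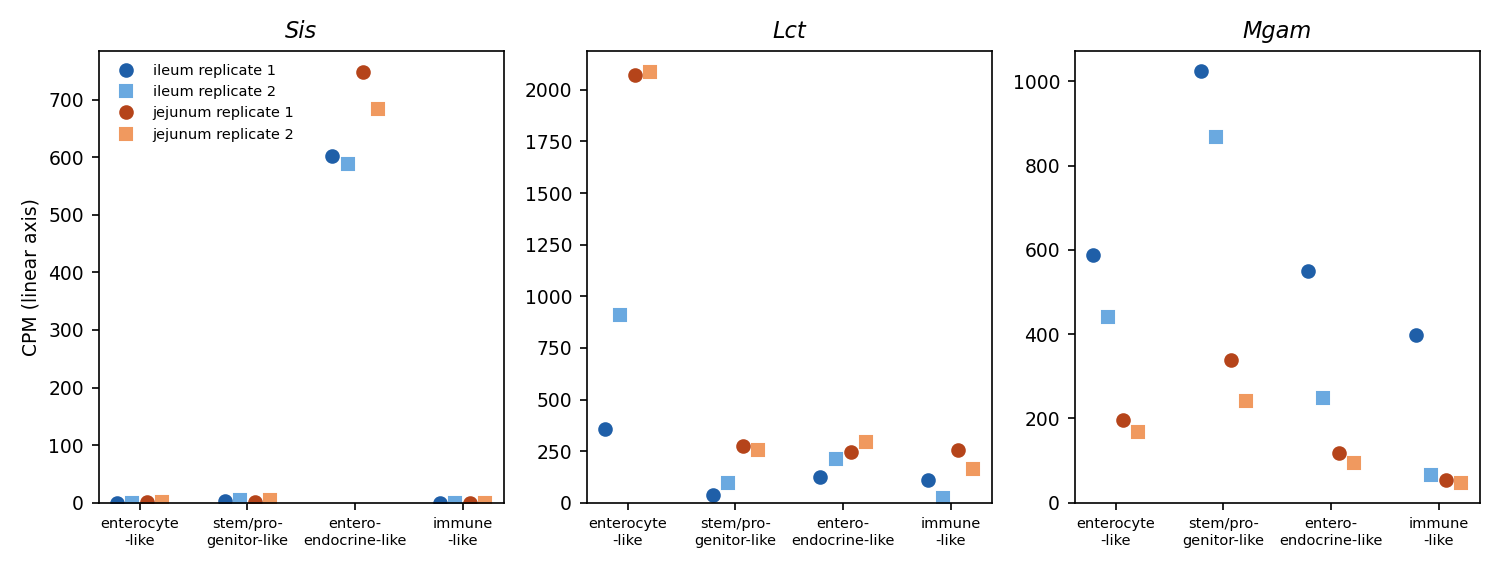
Level of Sis, Lct and Mgam by cell class, in CPM on linear axes that start at 0, with 1 point per library. Sis lies at 588 to 747 in enteroendocrine-like cells and at 5.23 or below in the other classes shown. With each class summed over its clusters, Lct is highest in enterocyte-like and Mgam in stem/progenitor-like cells. Immune-like points rest on 10 to 19 cells each.

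Enteroendocrine-like cells were divided by 17 hormone, granule and lineage genes after the Sis values had been seen, so the following counts are descriptions. Sis was seen in 171 of 239 cells with a UMI of Chgb, which encodes the granule protein chromogranin B, and in 2 of 18 without. For Sct, which encodes the hormone secretin, it was seen in 142 of 194 cells with and 31 of 63 without. Cells with Sst, which encodes somatostatin, held Sis in 2 of 10, against 171 of 247 without. At 2000 UMIs per cell the shares were 59.5% with and 12.5% without Chgb, 66.7% with and 38.9% without Sct, and 0 of 9 cells with Sst against 58.5% without. Sis was seen at this depth more often in cells with than without Tph1 (65.9% against 44.4%), an enzyme of serotonin synthesis, and with than without Cck (68.4% against 48.6%), which encodes cholecystokinin. For Ghrl, which encodes ghrelin, it was seen in 42.9% with and 58.1% without (unthinned 17 of 35 and 156 of 222 cells), and for the endocrine progenitor factor Neurog3 in 41.7% and 57.99% (14 of 30 and 159 of 227). For Gcg, Nts and Pyy, which encode other gut hormones, the shares with and without were 71.4% against 55.0%, 63.2% against 55.8% and 55.6% against 56.5%. Cells of the 4 libraries were pooled in these counts, and for Neurog3, Ghrl, Nts and Pyy the direction differed between libraries. At 2000 UMIs, shares with and without Neurog3 were 75% and 54.4%, and 66.7% and 62.3%, in ileum replicates 1 and 2. In jejunum replicates 1 and 2 they were 20% and 66.7%, and 22.2% and 44.4%. For Ghrl they were 66.7% and 54.5%, 11.1% and 70.7%, 66.7% and 62%, and 25% and 41.5% in this order. These groups with the gene held 4 to 9 cells. Of the 106 enterocyte-like cells with a Sis UMI, 1 held 3 or more enteroendocrine markers (0.943%, against 0.236% of those without), and of the 42 stem/progenitor-like cells, 3 did (7.14% against 0.3332%).

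Along a villus score, the abundant hydrolases split into those higher toward its tip end and those higher toward its base end. Enterocyte-like cells of each library, thinned to 2000 UMIs, were ranked by a score of tip genes minus base genes and cut into 5 equal bins. The base genes were Rplp0, Rpl3, Rpl4, Rps2, Rps3, Rack1, Eef1b2, Npm1 and Nap1l1, mostly genes of ribosomal proteins and translation. Position on the villus was not measured, and the first bin is also the one richest in RNA of these base genes. The tip genes Ada and Pkib were at 0 CPM in every bin but the fifth, where they reached only 0.660 to 4.57 CPM. Since the bins were cut by a score that holds these tip and base genes, their levels across the bins follow from it and do not test it. Lct was higher in the fifth than in the first bin in 4 of 4 libraries, by 0.40 to 0.98 on the log2 scale with 5 CPM added, going from 202 to 402 in ileum replicate 1, 564 to 1061 in ileum replicate 2, 1737 to 2299 in jejunum replicate 1 and 1582 to 2230.5 in jejunum replicate 2. Alpi (0.82 to 1.31), Mep1b (0.30 to 0.68) and Mep1a (0.26 to 0.59) were also higher in the fifth bin in 4 of 4 libraries. Mgam went the other way, from 1098.5 to 299 in ileum replicate 1, 794 to 259.7 in ileum replicate 2, 254 to 139 in jejunum replicate 1 and 215 to 115 in jejunum replicate 2. Anpep went from 595 to 143, 807 to 524, 1384 to 544 and 2219 to 735 in the same order. Dpp4 showed no common direction (-0.45 to 0.02).

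The bins differed in quality as well as in score. From the first to the fifth bin, the median mitochondrial share went from 3.19% to 4.47% and from 3.21% to 5.19% in ileum replicates 1 and 2, and from 4.40% to 7.88% and from 9.77% to 10.8% in jejunum replicates 1 and 2, and the median UMIs per cell before thinning fell in all 4 libraries. Their part in the villus pattern was not tested. With tip genes alone as the score, each of these 6 hydrolases kept its direction in all 4 libraries.

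**Figure D4:**
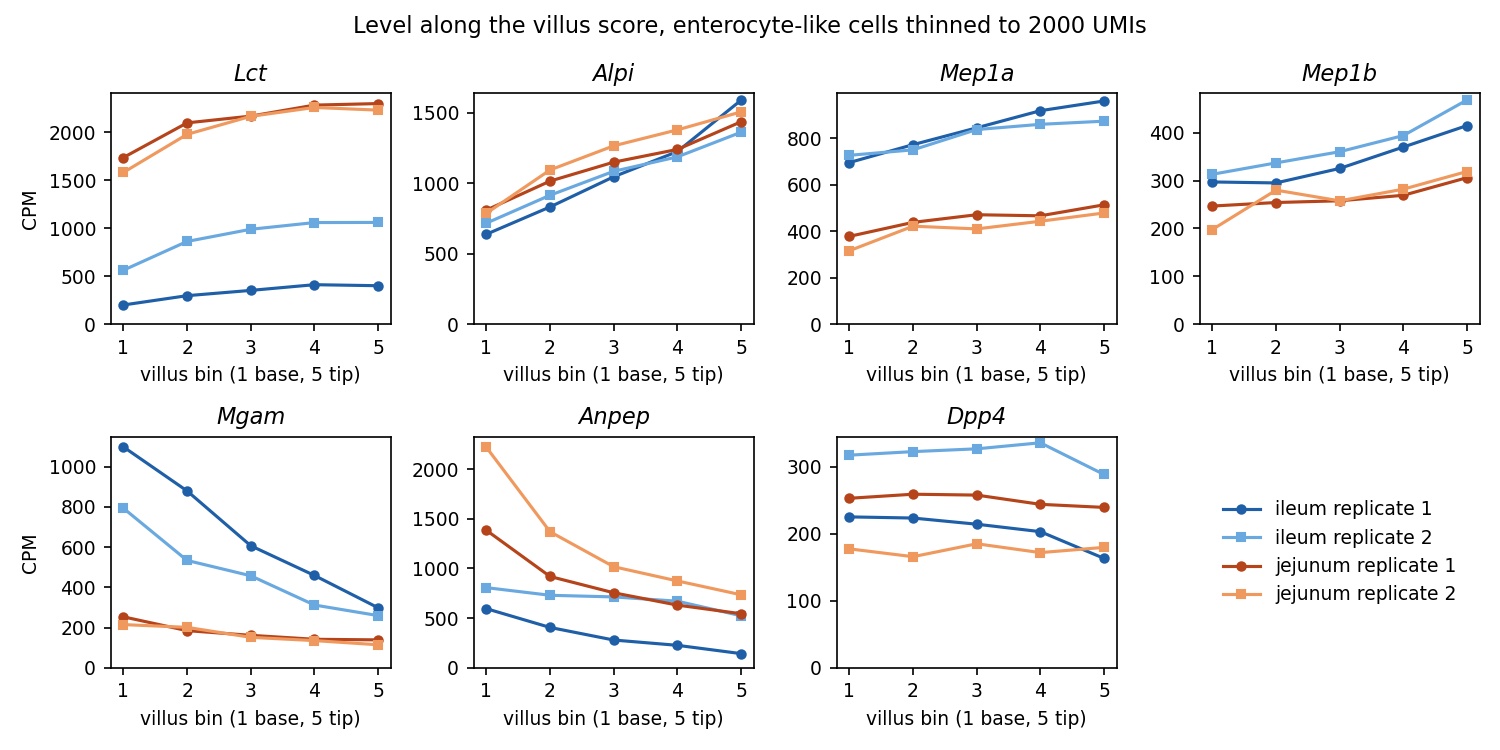
Level of 7 hydrolases in 5 bins of enterocyte-like cells ranked by the villus score, from its base end (1) to its tip end (5). Values are in CPM after thinning to 2000 UMIs per cell, with 1 line per library, and each axis starts at 0. Lct, Alpi, Mep1a and Mep1b are higher in bin 5 than in bin 1 in all 4 libraries, Mgam and Anpep are lower in all 4, and Dpp4 is nearly flat.

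Over the 20 points of 5 bins in 4 libraries, the genes with the pattern most like Lct among 4047 genes at 50 CPM or more were Fabp1 (Pearson r 0.989), which encodes the liver-type fatty acid-binding protein, Flvcr1 (0.988), a heme and choline transporter, and Leap2 (0.983), which encodes a secreted peptide. These correlations describe bins that share libraries and region. With each library's mean removed, they were 0.813, 0.822 and 0.831. For Sis, no bin held more than 4 UMIs and no likeness is read from it.

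Other brush border enzymes were compared between the regions by lists chosen by function, with earlier results of these data known. The counts called in these lists, here and in the next paragraphs, are therefore descriptions and not a test of the lists. Of 10 further peptidases, all tested in enterocyte-like cells, 1 was higher in the ileum and 3 were lower, against 4.10% and 2.97% of all genes. The higher one was Naaladl1, a dipeptidase-like enzyme, at 69.3 and 40.3 CPM in ileal against 14.3 and 8.39 in jejunal libraries (log2 ratio 2.16 ± 0.33, SE, adjusted p 0.0273 in edgeR). Mme (neprilysin) was lower, at 8.36 and 6.64 against 61.6 and 152 (-3.96 ± 0.48, adjusted p 0.0207). Ace, the angiotensin-converting enzyme, was at 493 and 509.6 against 1019 and 936 (-1.07 ± 0.14, adjusted p 0.0225). Ggt1, a gamma-glutamyltransferase, was at 9.51 and 10.9 against 21.3 and 28.6 (-1.40 ± 0.22, adjusted p 0.0286). Enpep, the glutamyl aminopeptidase (651 and 684 against 444 and 322, log2 ratio 0.70 ± 0.18, adjusted p 0.0787) did not pass. The median log2 ratio of the list was -0.43, beside -0.01 for all genes.

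Among 6 hydrolases of lipids, nucleotides and phosphates, all tested, 2 were called, both lower in the ileum. Asah2, the neutral ceramidase that digests milk sphingolipids, was at 85.4 and 156 CPM in ileal against 561 and 646 in jejunal libraries (log2 ratio -2.42 ± 0.34, SE, adjusted p 0.0251 in edgeR), and Enpp7, the alkaline sphingomyelinase, was at 34.0 and 28.3 against 58.9 and 52.5 (-0.95 ± 0.14, adjusted p 0.0266). These 2 enzymes act one after the other on sphingomyelin. Enpp3 (279.9 and 224 against 198 and 131.5, adjusted p 0.185) and Nt5e (6.65 and 3.64 against 2.29 and 2.60, adjusted p 0.121) did not pass. The median of the list was -0.36.

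**Figure D5:**
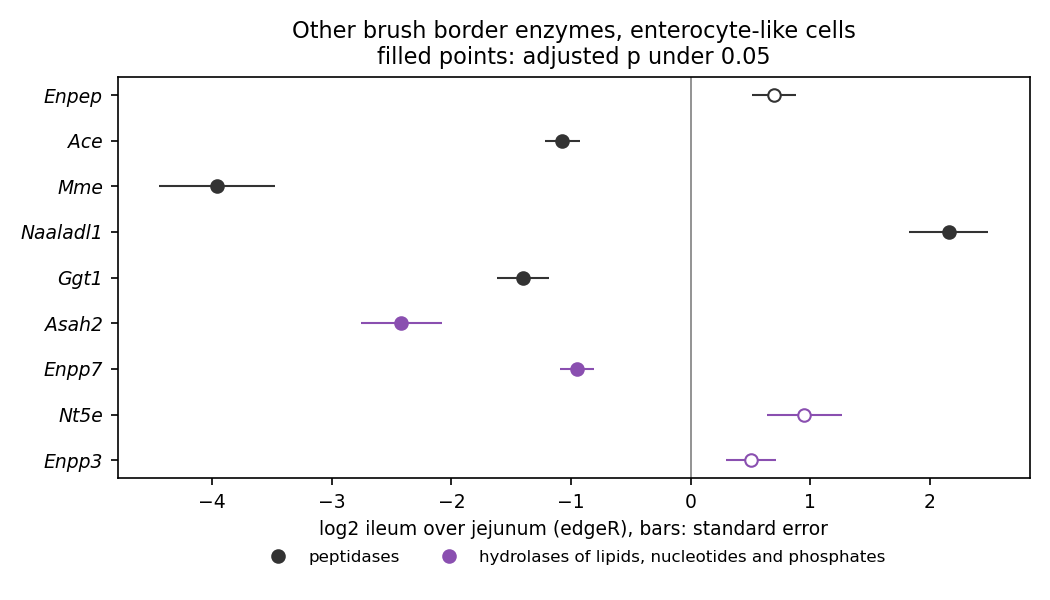
Log2 ratio of ileum to jejunum in enterocyte-like cells for the 5 further peptidases (black) and 4 hydrolases of lipids, nucleotides and phosphates (purple) named in the text, with standard errors; filled points passed an adjusted p of 0.05 in edgeR. Mme, Asah2, Ggt1, Ace and Enpp7 lie to the left of 0 and Naaladl1 to the right.

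Genes that build the microvilli were tested as well. Of 13 tested, 1 was called, against 7.07% of all genes. It was Baiap2l1, which was lower in the ileum (175 and 181 against 298 and 272 CPM, log2 ratio -0.79 ± 0.13, SE, adjusted p 0.0341 in edgeR). The cadherins Cdhr5 (1211 and 1242 against 1109.7 and 1101, adjusted p 0.872) and Cdhr2 (adjusted p 0.491), the actin regulator Eps8 (adjusted p 0.612) and the bundling protein Pls1 (adjusted p 0.138) did not pass, and the median was -0.08. Of 12 transcription factors known to act on hydrolase genes or on the change at weaning, 1 was called, against the same 7.07%. It was Gata4, which was at 32.8 and 51.6 in ileal against 113 and 105 in jejunal libraries (-1.47 ± 0.26, adjusted p 0.0361). Hnf4a (318 and 264 against 257 and 280.4, adjusted p 0.996), Hnf4g (adjusted p 0.564) and Gata6 (adjusted p 0.328) did not pass, and the median was 0.07. Each of the 8 genes of these lists called in enterocyte-like cells passed in 10 to 13 of 15 alternatives.

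In stem/progenitor-like cells, 3 of the 7 peptidases tested were called, Enpep (log2 ratio 1.58) and Naaladl1 (1.76) as higher in the ileum and Ace (-0.92) as lower, against 1.83% and 1.21% of genes called higher and lower there. Of the other hydrolases, 1 of 4 was called, Asah2 (-1.73), of the structural genes 0 of 13 by edgeR, with 4 at an unadjusted p under 0.05 and 0 called by DESeq2, and of the transcription factors 1 of 12, Gata4 (-2.13), against 3.04% of genes in either direction. With the mouse as a replicate block, against 9.30% of genes, 4 of the 13 structural genes were called, all higher in the ileum: Espn (0.55 ± 0.15, SE, adjusted p 0.0364 in edgeR), Cdhr2 (0.44 ± 0.11, 0.0213), Cdhr5 (0.42 ± 0.11, 0.0257) and Anks4b (0.58 ± 0.15, 0.0306). Of the 12 transcription factors, 2 were then called higher, Prdm1 (0.53 ± 0.13, 0.0172) and Klf4 (0.58 ± 0.13, 0.0117), and 1 lower.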

How the data were processed

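Single-cell RNA was measured by PIPseq in 2 jejunum and 2 ileum libraries of P6 mice. The deposited values are counts of UMIs per gene and cell, which the authors made with PIPseeker at sensitivity level 3, with GRCm39 given in the submitters' processing notes. The annotation is not given in the sources used here. Total counts per library were 57951874 to 131400239 UMIs. No column of the files was left unused. Members and lists were chosen with earlier results of these data known.

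Cells with 1000 to 6000 genes and under 20% mitochondrial UMIs were kept, since very rich barcodes can be doublets. This limit took out 1643 and 1121 barcodes in the deeper ileum libraries and 135 and 252 in the jejunum libraries. Cells were integrated over libraries and clustered with Seurat 5.3.0 (30 components, resolution 1, 23 clusters), without the 10 members among the clustering genes, and clusters were named from marker lists.

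UMIs were summed per library and class and tested with edgeR 4.0.16 (quasi-likelihood, TMM scaling, filterByExpr, Benjamini-Hochberg over all genes tested) in R 4.3.3, with region as the only term. The interaction was fitted with the library as a block. Libraries of the same number come from the same mouse. Their deviations from the region means correlated at 0.280 for the enterocyte-like sums and 0.208 for the stem/progenitor-like sums, so a fit with the mouse as a replicate block was also made. On simulated data, edgeR recovered 69.7% of 2-fold and 95.96% of 4-fold changes among 19848 genes for enterocyte-like cells. The simulation gave every gene the same fixed dispersion, held no effect of the mouse, and changed only genes above a floor of UMIs. These shares therefore do not carry over to genes that vary more between libraries, such as Lct, or to genes with few UMIs. Alternatives were DESeq2 1.42.0, other scalings, no filter on low counts, stricter cell filters, other clusterings and leaving out each library. For the sums over all cells, no upper limit on genes per cell was 1 more. Levels by class and villus bin have no test. The genes named were the members, then from each list those called and up to 4 others of the highest level; the 3 genes most like Lct were taken by Pearson's r. Some genes of these lists are not reported here. Hormone genes were chosen after the values were seen.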

Additional observations from a re-analysis of the deposited data

Results flagged for a closer look

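For Mep1a, 1 of 9 hydrolases tested, the region change differed between cell classes by the test of the interaction, against 9.30% of 19271 genes. The log2 ratio of ileum to jejunum was lower by 0.57 in enterocyte-like than in stem/progenitor-like cells (-0.57, adjusted p 0.0320 in edgeR). Mep1a was not called by DESeq2, without integration, or with the members kept among the clustering genes (-0.10, adjusted p 0.767 in edgeR).

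For Dpp4, the mice moved in opposite directions in enterocyte-like cells, with a log2 ratio of ileum to jejunum of -0.32 in the first mouse and 0.67 in the second. The difference between the mice was not tested, and mouse, labelled sex and batch cannot be told apart.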

How the results depend on the processing

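Of 487 alternative values, 392 kept their direction and side of the threshold or moved by less than the spread, 41 moved, 27 became stronger, 12 weaker and 15 reversed; the cause was not tested. In enterocyte-like cells, 1396 genes were called, against 439 with no filter on low counts, 2901 with the replicate block, 3171 by DESeq2 and 103 to 1797 with 1 library left out, and 2 members, against 1, 5, 5 and 0 to 3. In stem/progenitor-like cells, 396 genes became 724 with no filter, 1212 with the block and 135 to 982 with 1 library left out, and 3 members became 5, 5 and 3 to 5, and also 5 without integration and 5 with the members kept among the clustering genes. Over all kept cells, 1526 genes became 223 with no filter, 2702 with the block, 3198 by DESeq2 and 449 to 1772 with 1 library left out, and 2 members became 1, 5, 4 and 1 to 3. For the interaction, 1792 genes became 855 to 2082 with 1 library left out, and 1 member became 2 with no filter, 0 by DESeq2 (3 at an unadjusted p under 0.05) and 0 to 2 with 1 library left out. With 1 library left out, the lone library of a region was assumed to vary like the other region, and the log2 difference of the Sis to Lct ratio was 0.32 to 1.47 and that of the sum of Sis, Treh, Mgam and Akp3 to Lct 2.45 to 4.197.

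The log2 ratio of Dpp4 reversed in enterocyte-like cells with under 10% mitochondrial UMIs (-0.076) and over -0.30 to 0.40 with 1 library left out (below 0 without ileum replicate 2 and without jejunum replicate 2), and in stem/progenitor-like cells with the members kept (-0.050) and over -0.020 to 0.56 with 1 library left out (below 0 without ileum replicate 2). That of Alpi in stem/progenitor-like cells reversed without integration (0.062) and over -0.25 to 0.022 with 1 library left out (above 0 without ileum replicate 1). For the interaction, Lct reversed at resolution 0.5 (-0.083) and without integration (-0.35), Anpep with the members kept (0.32), and Alpi with library totals alone (0.0011), with the members kept (0.65) and over -0.23 to 0.075 with 1 library left out (above 0 without ileum replicate 2 and without jejunum replicate 2). The share of enterocyte-like cells with Alpi, ileum minus jejunum, was 0.518 percentage points without thinning. Scaling by library totals alone and the removal of the highest doublet scores in stem/progenitor-like cells were chosen after seeing the data. With 2 mice, exact tests over libraries cannot reach a p of 0.05, and Sis, Treh and Akp3 are limited by their counts.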
